A study of Mus musculus with 14 samples.

Results

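Transcripts of 48 genes of the cell cycle and mitosis were followed in kidneys of 14 mice. The members were chosen by name, covering G1 cyclins, cyclin-dependent kinase (CDK) inhibitors, E2F-type transcription factors, replication factors, mitotic kinases, and spindle proteins, and kept if they passed a floor on their level. All 48 were found among the 21878 genes listed for each mouse, and all 48 reached 0.1 FPKM (fragments per kilobase of transcript, scaled to the size of the library) in at least 3 mice, as did 14912 genes in all. Of the 48, *Cdc6*, *Bub1*, *Cenpf*, *E2f8*, and *Cdkn2a* reached that level in 0 of the 6 control mice, and *Ccne1* in under 3. These 6 passed only with diabetic mice, so their difference between diabetic and control mice is given as values without a test. Counts of calls over the 48 genes or over a role still include them and are not read as results about these 6.

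All animals were males on a C57BL/6J background. Diabetes was induced in 4 *Cfb-/-* and 4 WT mice, and 3 mice of each genotype served as controls. *Cfb* encodes complement factor B, a protease of the alternative pathway of complement, and its deletion was not limited to a cell type or organ. Diabetic mice received HFD with 60% of calories from fat for 4 weeks from 8 weeks of age and then STZ, a toxin of pancreatic beta cells, at 60 mg/kg on 5 days. Controls were kept on chow, with fat at 10% of calories, and injected with citrate buffer alone. The kidneys were taken 21 weeks after STZ by the study's methods, and at 34 weeks by the labels, which name no starting point. Diabetic mice were kept in the study only above a set fasting glucose. The labels call the deletion a knockdown and use the same treatment wording for control and diabetic mice, so the groups were taken from the sample titles. The design implies comparisons of diabetes within each genotype, of *Cfb* deletion in diabetic and in control mice, and of the effect of diabetes between genotypes. Every diabetic mouse had HFD and STZ and no control had either, so effects of diet, toxin, and diabetes cannot be told apart. Below, an effect of diabetes means that of the whole treatment.

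Cells enter division when D-type cyclins with their kinases inactivate RB proteins, which frees E2F factors to switch on genes of DNA replication. Later, FOXM1 and B-MYB switch on the cyclins, kinases, and motor proteins of mitosis. INK4 inhibitors block the kinases of the D-type cyclins and are known from aging and injured tissue, where cells may leave the cycle for good. Most cells of adult kidney are quiescent, and tubule cells are known to re-enter the cycle after injury.

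The deleted gene itself was checked first. *Cfb* stood at 106 ± 38.2 FPKM in WT control, 72.5 ± 11.2 FPKM in WT diabetic, 2.16 ± 0.0913 FPKM in *Cfb-/-* control, and 1.34 ± 0.144 FPKM in *Cfb-/-* diabetic mice, in the order the titles give. Markers of proximal tubule, thick limb, distal tubule, collecting duct, podocytes, and endothelium were found in every group, as a kidney sample should hold. Read numbers were not given for any mouse, and relative depth, estimated from the steps between low values, ranged from 0.841 to 1. *Kap*, an abundant proximal tubule transcript, took 10.2% to 13.9% of all FPKM in control mice and 1.98% to 4.60% in diabetic mice. FPKM of other genes moves with such a share, so levels were also rescaled by the median ratio of all genes.

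The cell cycle transcripts were scarce in control kidney. In WT control mice, 34 of the 48 genes had a mean under 1 FPKM, and 20 did in WT diabetic mice. The highest levels in WT control mice were those of *Ccnd1*, which encodes cyclin D1, at 34.7 ± 12.6 FPKM, and of *Pcna*, which encodes the sliding clamp of DNA polymerases, at 22.8 ± 0.736 FPKM (SD, n = 3). These genes did not overlap, since *Pcna* had 22.3 to 23.7 FPKM and *Ccnd1* 25.4 to 49.1 FPKM. *Mcm7*, *Cdkn2c*, and *Mcm6* followed at 5.44 ± 1.21, 5.03 ± 0.226, and 4.54 ± 0.583 FPKM, and their values overlapped. The median coefficient of variation among mice of a group was 28.6% in WT control, 23.5% in *Cfb-/-* control, 20.1% in WT diabetic, and 13.5% in *Cfb-/-* diabetic mice.

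Most of the cell cycle genes were higher in diabetic than in control mice of both genotypes. In WT mice, 40 of 48 passed an adjusted p under 0.05 as higher in diabetic than in control mice, where 36.2% of all 14912 tested genes did, and 0 of 48 were lower, where 9.97% of all genes were (limma, Benjamini-Hochberg). An unadjusted p under 0.05 was reached by 41 members of the 48, against 54.4% of all genes. In *Cfb-/-* mice, 40 of 48 were higher, against 27.4% of all genes, and 0 were lower, against 6.4%, with 43 at an unadjusted p under 0.05, against 43.5%. The members had a median log2 fold change of 1.59 for WT and 1.41 for *Cfb-/-* mice, beside 0.29 and 0.22 for all tested genes. At the study's criteria (unadjusted p under 0.05 and fold change over 2 or under 0.5), 35 of 48 were higher in WT mice, against 15.6% of all genes, and 31 of 48 in *Cfb-/-* mice, against 13.3%, and 0 were lower, against 1.82% and 1.66%. Groups did not overlap, with all diabetic mice above all controls, for 41 of 48 genes in WT mice (35.5% of all genes) and 41 in *Cfb-/-* mice (33.6% of all genes). No member lay without overlap in the lower direction, as 9.84% and 8.64% of all genes did. These counts include the 6 genes that passed the floor only with diabetic mice. Among the 42 members with at least 0.1 FPKM in at least 3 control mice, a set counted after the data were seen, 34 were higher in WT and 34 in *Cfb-/-* mice, where 34.9% and 26.3% of the 13803 genes chosen likewise were. These are bulk samples, in which fewer cells of a type and less RNA per cell cannot be told apart. All fold changes are of FPKM + 0.1, a scale that understates changes of genes near the floor.

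**Figure D1:**
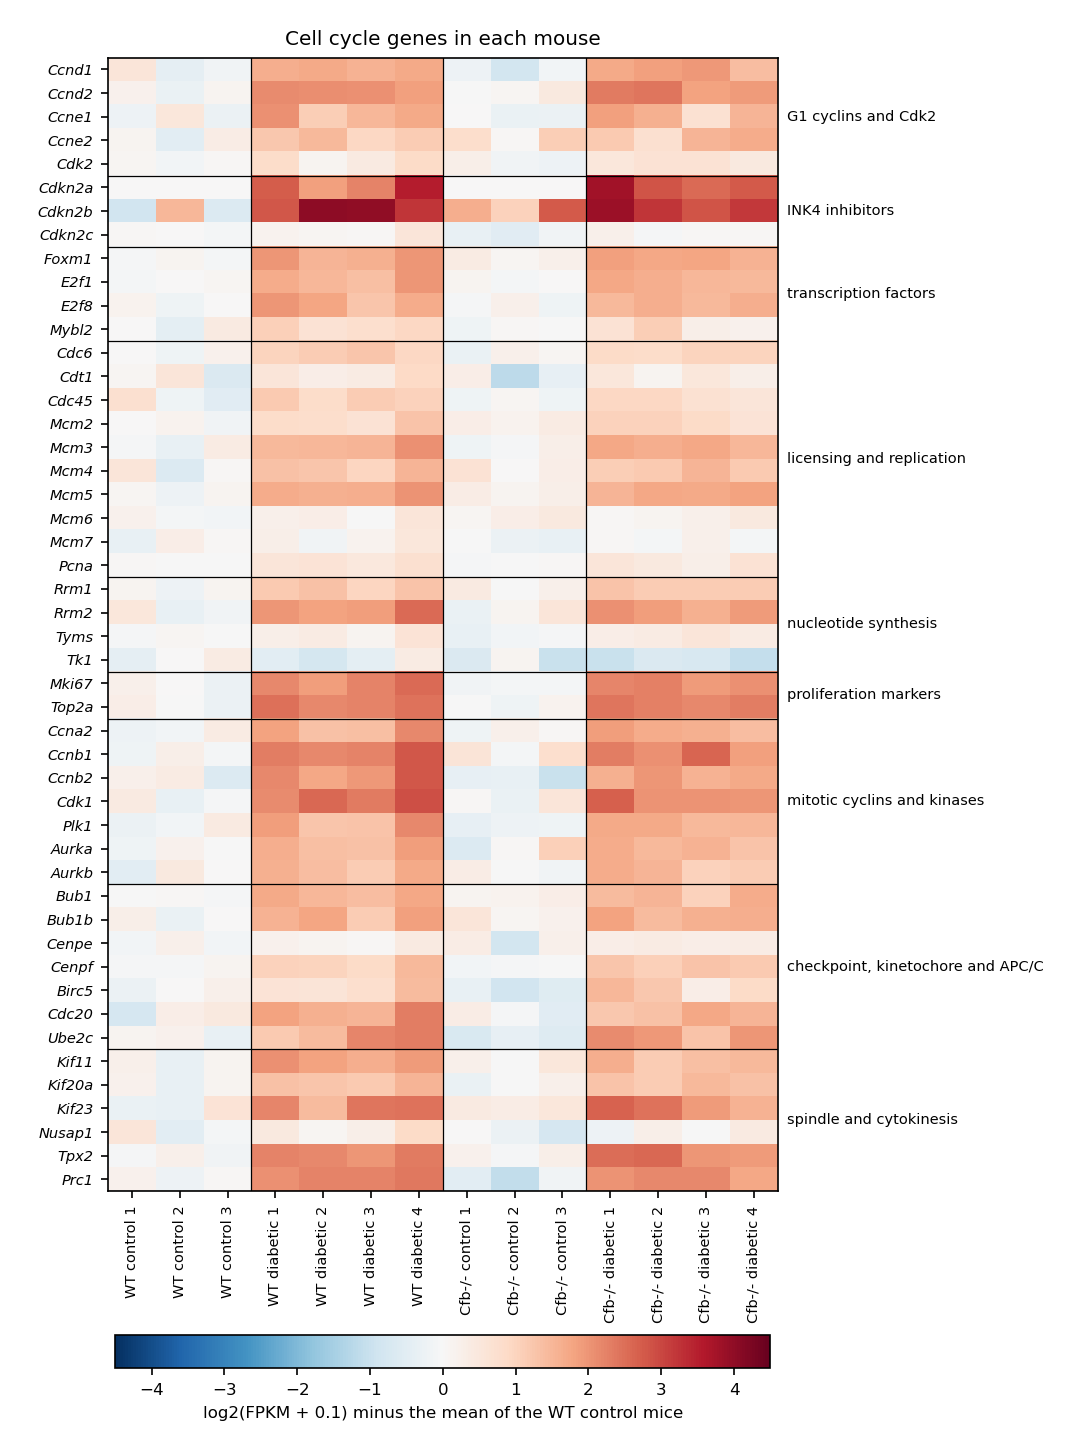
Each row is a cell cycle gene, grouped by role, and each column is a mouse. The color gives log2(FPKM + 0.1) minus the gene's mean in the 3 WT control mice, with red for higher. The 8 diabetic mice are red in most rows, and *Mcm6*, *Mcm7*, *Cenpe*, *Nusap1*, and *Tk1* show little or no red.

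The size of the rise depended on the scaling, and its direction for the group of genes did not. With median-ratio scaling, the median of all tested genes went to 0.03 in WT and -0.01 in *Cfb-/-* mice, and the medians of the 48 genes were 1.38 and 1.20. With quantile normalization they were 0.84 and 0.75, beside -0.05 and -0.05 for all genes. The number higher with median-ratio scaling was 38 in WT mice, where 22.7% of all genes were higher and 22.4% lower. It was 34 in *Cfb-/-* mice, where 18.5% of all genes were higher and 14.1% lower. Under that scaling 0 members were lower in either genotype. Median-ratio scaling ended the calls of *Birc5* and *Cdk2* in WT mice and of *Cdkn2b*, *Cdkn2c*, *Mcm2*, *Pcna*, *Tyms*, and *Cdk2* in *Cfb-/-* mice. Quantile normalization left 32 and 29 members higher, where 15.9% and 14.4% of all genes were higher and 20.1% and 14.9% lower. Leaving out genes kept only through diabetic mice, it ended the calls of *Mybl2*, *Cdc45*, *Aurka*, *Birc5*, *Ccne2*, and *Cdk2* in WT mice. In *Cfb-/-* mice it ended those of *Cdkn2b*, *Cdkn2c*, *Cdc45*, *Mcm2*, *Mcm4*, *Tyms*, *Aurka*, *Aurkb*, *Kif11*, and *Cdk2*.

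The WT and *Cfb-/-* comparisons of diabetes share no mouse. Of the 48 genes, 38 were called higher in both, against 22.7% of all tested genes. The 38 include *Cdc6*, *Bub1*, *Cenpf*, *E2f8*, *Cdkn2a*, and *Ccne1*, which passed the floor only with diabetic mice. Called in neither were 6, these being *Cdt1*, *Mcm6*, *Mcm7*, *Tk1*, *Cenpe*, and *Nusap1*. *Mybl2* and *Ccne2* were called in WT mice alone and *Cdkn2c* and *Tyms* in *Cfb-/-* mice alone, but the difference between genotypes was not called for these 4 genes. The log2 fold changes had the same sign for 47 of 48 genes, with *Mcm6* as the exception, and for 82.7% of all tested genes. Across the 48 genes their correlation was 0.851 (Pearson) and 0.884 (Spearman), and across all 14912 genes 0.812 and 0.804. The points share libraries within each genotype, and genes are not independent replicates.

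**Figure D2:**
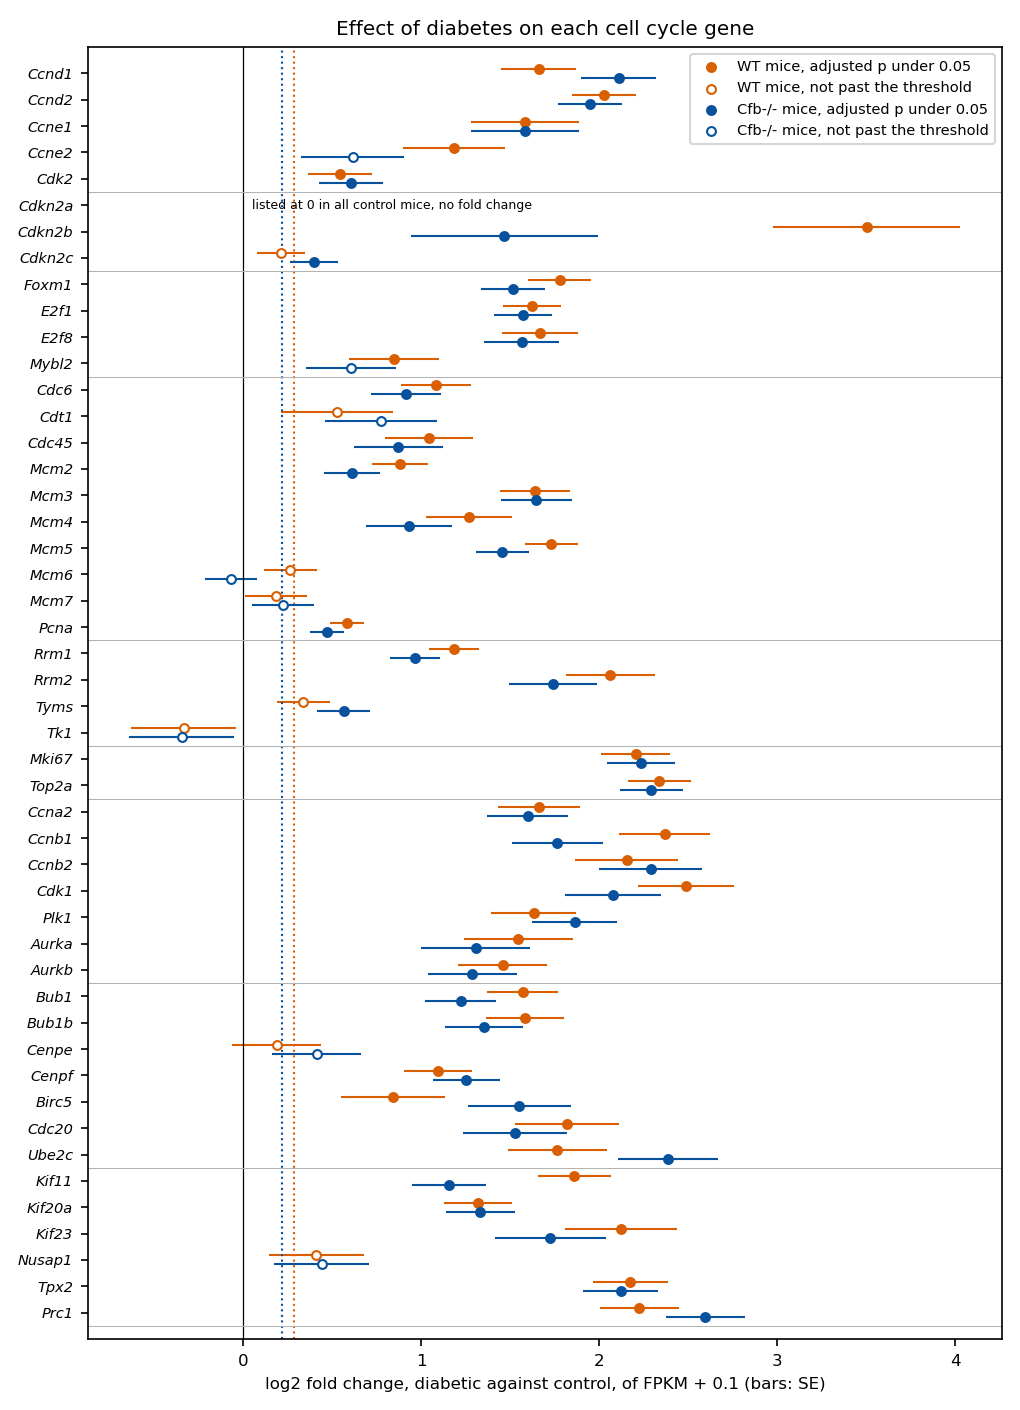
The points give the log2 fold change of diabetic against control mice for each gene, in orange for WT and in blue for Cfb-/- mice, with bars of 1 SE. Filled points passed an adjusted p under 0.05, and the dotted lines mark the medians of all tested genes, 0.29 in WT and 0.22 in Cfb-/- mice. Cdc6, Bub1, Cenpf, E2f8, and Ccne1 passed the floor only with diabetic mice, so their points are not read as tests. Cdkn2a has no point because it was listed at 0 in all control mice, and all filled points lie above 0.

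Among the G1 cyclins, *Ccnd1* had the highest mean FPKM of the 48 genes. It was at 49.1, 25.4, and 29.7 FPKM in WT control mice and at 105, 109, 99.6, and 109.9 FPKM in WT diabetic mice. Without *Cfb* it was at 28.7, 18.7, and 30.7 FPKM in controls and at 109.8, 121, 129, and 86.5 FPKM in diabetic mice. All 8 diabetic mice lay above all 6 controls, and the lowest diabetic mouse had 86.5 FPKM. The log2 fold change was 1.66 (SE 0.21, adjusted p = 4.64e-05) in WT and 2.11 (SE 0.21, adjusted p = 9.11e-06) in *Cfb-/-* mice. *Ccnd2*, which encodes cyclin D2, was at 1.89, 1.32, and 1.82 FPKM in WT control and at 7.63, 7.34, 7.12, and 6.28 FPKM in WT diabetic mice. It was at 1.63, 1.76, and 2.31 FPKM in *Cfb-/-* control and at 8.88, 9.28, 6.12, and 6.46 FPKM in *Cfb-/-* diabetic mice. With a log2 fold change of 2.03 (SE 0.18) in WT and 1.95 (SE 0.18) in *Cfb-/-* mice, *Ccnd2* rose in both genotypes, with no overlap between diabetic and control mice. The E-type cyclins drive the step from G1 into S phase with CDK2. *Ccne1* was at 0.0466 to 0.153 FPKM in control and at 0.186 to 0.642 FPKM in diabetic mice. *Ccne2* rose in WT mice (1.19, SE 0.29), and in *Cfb-/-* mice its change of 0.62 (SE 0.29) had an adjusted p of 0.115. *Cdk2* changed least of these genes, by 0.55 in WT (adjusted p = 0.0225) and 0.61 in *Cfb-/-* mice (adjusted p = 0.0168). Its call in WT mice was lost without WT diabetic mouse 1 (0.46), WT diabetic mouse 4 (0.44), or WT control mouse 2 (0.48), and in *Cfb-/-* mice without *Cfb-/-* control mouse 2 (0.55) or 3 (0.51).

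The INK4 inhibitors behaved unequally. *Cdkn2a*, whose locus gives rise to p16INK4a and ARF, was listed at 0 in all 6 control mice. It was at 0.553, 0.263, 0.373, and 1.05 FPKM in WT diabetic mice and at 1.28, 0.619, 0.492, and 0.579 FPKM in *Cfb-/-* diabetic mice. It was present in each of the 8 diabetic mice, and neither a fold change nor a test is given against controls at 0. The value per gene does not separate p16INK4a from ARF, which start at different promoters.

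*Cdkn2b*, which encodes p15INK4b, lies next to *Cdkn2a*. In GRCm38.p6, *Cdkn2a* spans chr4:89274473-89294619 and *Cdkn2b* chr4:89306289-89311032, with 11669 bases between them. *Cdkn2b* was at 0.0906, 0.870, and 0.127 FPKM in WT control mice and at 2.30, 5.53, 5.39, and 3.13 FPKM in WT diabetic mice. Mice lacking *Cfb* had 0.967, 0.612, and 2.26 FPKM in controls and 4.86, 3.15, 2.38, and 3.09 FPKM in diabetic mice. The highest *Cfb-/-* control mouse, at 2.26 FPKM, almost reached the lowest diabetic mouse of its genotype. The log2 fold change was 3.50 (SE 0.53, adjusted p = 0.000158) in WT and 1.47 (SE 0.53, adjusted p = 0.0436) in *Cfb-/-* mice. The second call was lost without any of 6 single mice, with the lowest value at 1.08 (adjusted p = 0.194) without *Cfb-/-* control mouse 2. The others were *Cfb-/-* diabetic mice 1 (1.28), 2 (1.48), and 4 (1.49), *Cfb-/-* control mouse 1 (1.38), and WT diabetic mouse 4 (1.47), the last entering only through the shared spread.

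*Cdkn2c*, which encodes p18INK4c and lies elsewhere on the same chromosome at chr4:109660876-109666756, was among the more abundant genes of the set in control kidney. It was at 5.22, 5.09, and 4.78 FPKM in WT control and at 5.67, 5.33, 5.21, and 7.40 FPKM in WT diabetic mice. It was at 4.01, 3.50, and 4.47 FPKM in *Cfb-/-* control and at 5.91, 4.84, 5.22, and 5.21 FPKM in *Cfb-/-* diabetic mice. The WT groups overlapped, with a log2 fold change of 0.21 (SE 0.13, adjusted p = 0.203). In the *Cfb-/-* groups it rose by 0.40 (SE 0.13, adjusted p = 0.0327). That call was lost without *Cfb-/-* diabetic mouse 1 (0.35), 3 (0.41), or 4 (0.41), or without *Cfb-/-* control mouse 1 (0.41) or 2 (0.31).

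**Figure D3:**
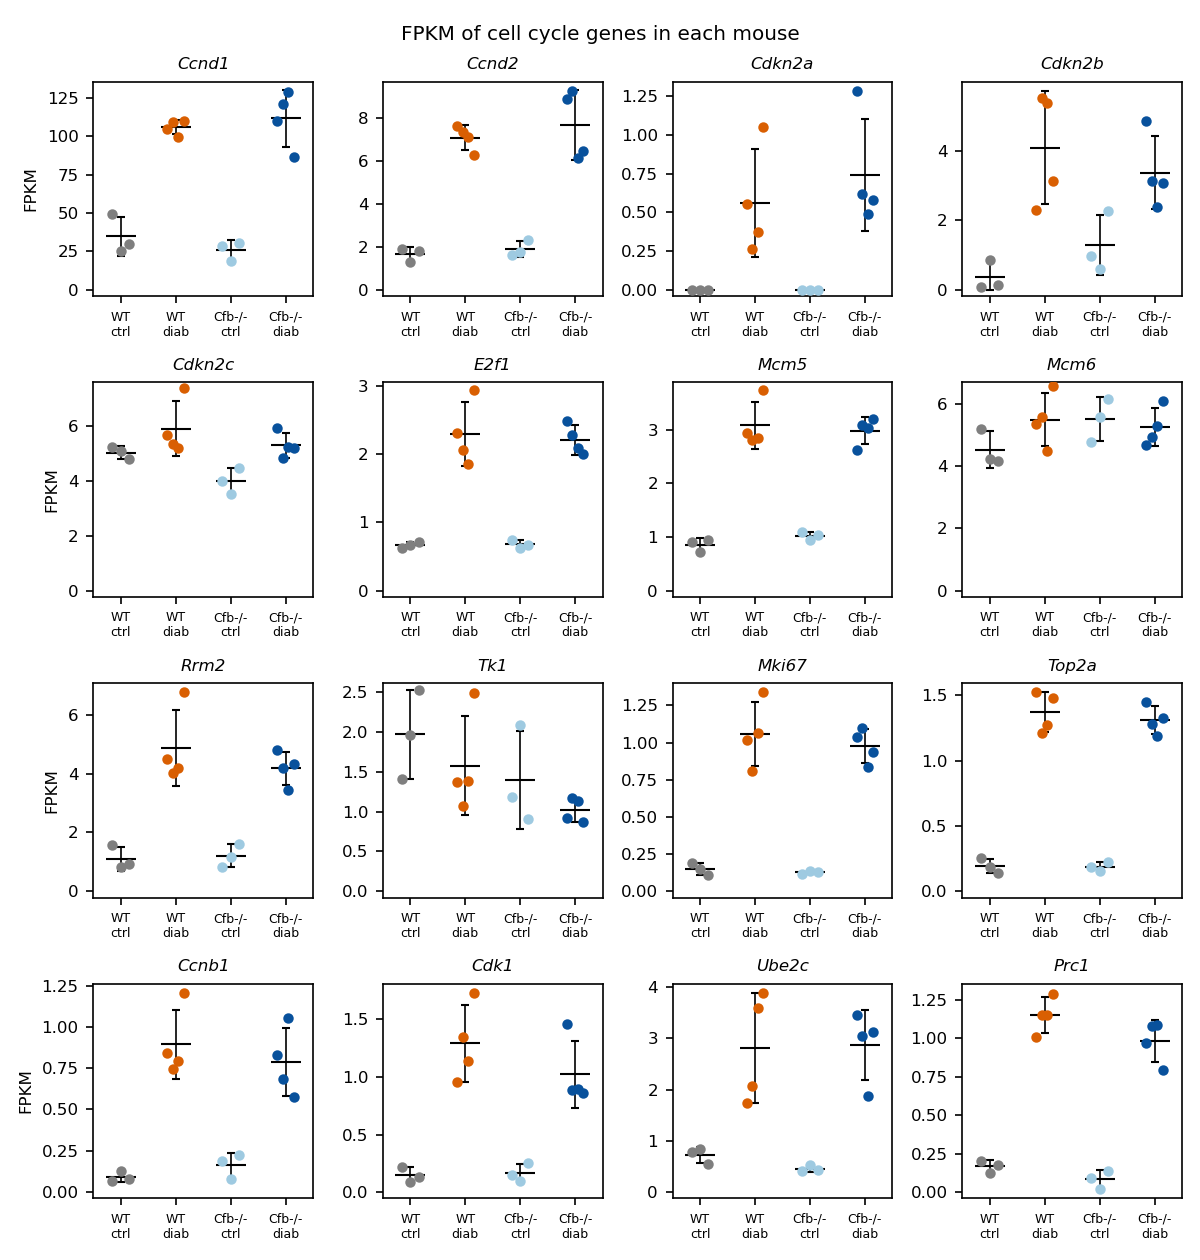
Each panel shows the FPKM of a gene in every mouse, with the group mean (line) and SD (bar, cut at 0) for 3 control or 4 diabetic mice. Diabetic mice lie above the controls of their genotype for all genes shown but Cdkn2c in WT mice, and Mcm6 and Tk1 in both genotypes. Cdkn2a is at 0 in the 6 control mice.

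Of the transcription factors, *E2f1*, which switches on replication genes, was at 0.618, 0.671, and 0.709 FPKM in WT control and at 2.31, 2.06, 1.86, and 2.93 FPKM in WT diabetic mice. For *Cfb-/-* mice the values were 0.738, 0.622, and 0.669 FPKM in controls and 2.49, 2.28, 2.08, and 1.995 FPKM in diabetic mice. The groups were well apart, and *E2f1* rose by 1.62 (SE 0.16, adjusted p = 9.27e-06) and 1.57 (SE 0.16, adjusted p = 1.24e-05). *Foxm1*, the mitotic activator, was at 0.134, 0.160, and 0.128 FPKM in WT control and at 0.848, 0.592, 0.628, and 0.862 FPKM in WT diabetic mice. It was at 0.207, 0.153, and 0.181 FPKM in *Cfb-/-* control and at 0.760, 0.711, 0.716, and 0.619 FPKM in *Cfb-/-* diabetic mice, and rose by 1.78 (SE 0.18) and 1.52 (SE 0.18). *E2f8*, a repressor of the E2F family, was at 0.0103 to 0.0491 FPKM in control and at 0.203 to 0.398 FPKM in diabetic mice. *Mybl2*, which encodes B-MYB, rose in WT mice (0.85, SE 0.25, adjusted p = 0.0147), a call lost without WT control mouse 2 (0.63), and had an adjusted p of 0.0789 in *Cfb-/-* mice.

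Of the 10 licensing and replication genes, 7 passed an adjusted p under 0.05 as higher in each genotype. That count includes *Cdc6*, which passed the floor only with diabetic mice, so its call is not read as a result. *Cdc6* was at 0.0309 to 0.0891 FPKM in control and at 0.186 to 0.280 FPKM in diabetic mice. CDC6 and CDT1 load the MCM2-7 helicase onto replication origins, and CDC45 activates it. *Pcna* was at 23.7, 22.5, and 22.3 FPKM in WT control and at 33.7, 34.6, 31.9, and 37.3 FPKM in WT diabetic mice. It was at 21.8, 22.5, and 23.9 FPKM in *Cfb-/-* control and at 33.2, 31.0, 27.3, and 35.5 FPKM in *Cfb-/-* diabetic mice. The rise was small but without overlap, at 0.59 (SE 0.10, adjusted p = 0.000289) and 0.47 (SE 0.10, adjusted p = 0.00165). *Mcm5* had the largest change of this role in WT mice, from 0.905, 0.722, and 0.945 FPKM in WT control to 2.94, 2.81, 2.85, and 3.74 FPKM in WT diabetic mice. For *Cfb-/-* mice they were 1.09, 0.945, and 1.04 FPKM in controls and 2.63, 3.09, 3.03, and 3.21 FPKM in diabetic mice. It rose by 1.73 (SE 0.15, adjusted p = 3.03e-06) and 1.46 (SE 0.15, adjusted p = 1e-05).

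The 6 subunits of the MCM2-7 helicase did not move alike, although they act as a single ring. *Mcm2*, *Mcm3*, *Mcm4*, and *Mcm5* rose, by 0.88 to 1.73 in WT and by 0.61 to 1.65 in *Cfb-/-* mice. *Mcm6* and *Mcm7* were not called in either genotype. *Mcm6* was at 5.21, 4.25, and 4.16 FPKM in WT control and at 5.36, 5.59, 4.50, and 6.58 FPKM in WT diabetic mice, and at 4.80, 5.60, and 6.18 FPKM in *Cfb-/-* control and 4.70, 4.96, 5.30, and 6.12 FPKM in *Cfb-/-* diabetic mice. Its groups overlapped in both genotypes, with log2 fold changes of 0.27 (SE 0.15, adjusted p = 0.147) and -0.07 (SE 0.15, adjusted p = 0.75). For *Mcm7* they were 0.19 (SE 0.17) and 0.23 (SE 0.17). With median-ratio scaling *Mcm6* in WT mice was at -0.0091, and *Mcm7* at -0.09 in WT and -0.012 in *Cfb-/-* mice. *Mcm6* and *Mcm7* had the highest control levels of the 6 subunits, with means of 4.54 and 5.44 FPKM in WT control mice against 0.857 to 2.59 FPKM for the other 4.

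Ribonucleotide reductase makes the deoxyribonucleotides of DNA synthesis. Its small subunit *Rrm2* was at 1.57, 0.814, and 0.932 FPKM in WT control and at 4.50, 4.01, 4.20, and 6.77 FPKM in WT diabetic mice. It was at 0.838, 1.18, and 1.62 FPKM in *Cfb-/-* control and at 4.79, 4.19, 3.44, and 4.31 FPKM in *Cfb-/-* diabetic mice. *Rrm2* rose by 2.06 (SE 0.25, adjusted p = 3.27e-05) and 1.74 (SE 0.25, adjusted p = 0.000125) with no overlap. The large subunit *Rrm1* was at 2.34, 1.78, and 2.33 FPKM in WT control, 4.98, 5.44, 4.30, and 5.29 FPKM in WT diabetic, 2.87, 2.09, and 2.54 FPKM in *Cfb-/-* control, and 5.27, 4.82, 4.83, and 4.87 FPKM in *Cfb-/-* diabetic mice. It rose less, by 1.19 (SE 0.14) and 0.97 (SE 0.14). *Tyms*, which encodes thymidylate synthase, rose in *Cfb-/-* mice (0.57, SE 0.15, adjusted p = 0.00878) and had an adjusted p of 0.0725 in WT mice, which fell to 0.0457 without WT diabetic mouse 3 (0.42).

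*Tk1*, which encodes the thymidine kinase of the salvage pathway, was the only gene of the 48 with a lower mean log2 value in diabetic mice of both genotypes. It was at 1.41, 1.96, and 2.52 FPKM in WT control and at 1.37, 1.07, 1.38, and 2.48 FPKM in WT diabetic mice. In *Cfb-/-* mice it was at 1.18, 2.09, and 0.912 FPKM in controls and at 0.917, 1.18, 1.13, and 0.869 FPKM in diabetic mice. The groups overlapped, and the changes of -0.33 (SE 0.29, adjusted p = 0.367) and -0.34 (SE 0.29, adjusted p = 0.395) were not called. With quantile normalization they were called as lower, at -0.91 and -0.92. Without single mice they ranged from -0.56 to -0.14 in WT mice, the latter without WT control mouse 3, and from -0.58 to -0.03 in *Cfb-/-* mice, the latter without *Cfb-/-* control mouse 2.

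Sequence before the start sites was taken from RefSeq promoters (GRCm38.p6) because the members rose together to unequal extents. Of the 48 genes, 39 matched with 43 promoters. The 250 bases before each start were searched on both strands for a CCAAT box (CCAAT), for E2F sites (TTGGCGC or its variants TTCGCGC and also TTCCCGC), and for the CHR element of late cell cycle genes (TTTGAA). An E2F site can overlap a CCAAT box. In the 19 promoters of G1 and S phase genes (G1 cyclins, factors, licensing, and nucleotides), 42.1% held an E2F site, 63.2% a CCAAT box, and 15.8% a CHR element. Of all 32851 mouse promoters, 6.69% held an E2F site, 33.8% a CCAAT box, and 16% a CHR element. Among the 21263 promoters of protein-coding genes these shares were 8.64%, 35.4%, and 14.5%. Stretches of 160 bases up to the start are printed for *Mcm5* (chr8:75109349-75109508, plus strand), which rose, and for *Mcm6* (chr1:128359706-128359865, minus strand) and *Tk1* (chr11:117826015-117826174, minus strand), which were not called, 5′ to 3′ with these motifs in capitals. For *Mcm5* and *Mcm6*, sequence just downstream of the start was not found in an annotated transcript.
Mcm5: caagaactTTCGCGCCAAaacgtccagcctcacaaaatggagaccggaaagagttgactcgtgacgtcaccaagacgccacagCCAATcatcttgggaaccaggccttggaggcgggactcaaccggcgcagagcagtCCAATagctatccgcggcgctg
Mcm6: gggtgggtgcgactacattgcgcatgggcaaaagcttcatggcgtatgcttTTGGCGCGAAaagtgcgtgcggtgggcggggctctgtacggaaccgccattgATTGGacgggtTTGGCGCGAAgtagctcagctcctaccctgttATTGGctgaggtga
Tk1: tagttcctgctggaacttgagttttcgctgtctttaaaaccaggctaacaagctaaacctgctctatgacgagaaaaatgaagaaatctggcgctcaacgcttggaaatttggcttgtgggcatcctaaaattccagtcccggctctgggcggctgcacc

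The *Mcm6* stretch held CCAAT boxes and E2F sites, as that of *Mcm5* did, and the *Tk1* stretch held none of these letters. A match is a description of the letters and not of binding.

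The proliferation markers were among the clearest rises. *Mki67*, which encodes the Ki-67 antigen of cycling cells, was at 0.193, 0.150, and 0.107 FPKM in WT control and at 1.02, 0.809, 1.07, and 1.34 FPKM in WT diabetic mice. In *Cfb-/-* mice it was at 0.120, 0.134, and 0.131 FPKM in controls and at 1.04, 1.10, 0.838, and 0.939 FPKM in diabetic mice. The lowest diabetic mouse, at 0.809 FPKM, was over 4 times the highest control. *Mki67* rose by 2.20 (SE 0.19, adjusted p = 3.26e-06) in WT and 2.24 (SE 0.19, adjusted p = 3.53e-06) in *Cfb-/-* mice. *Top2a*, which encodes the topoisomerase that untangles sister chromatids, was at 0.253, 0.183, and 0.143 FPKM in WT control and at 1.52, 1.21, 1.27, and 1.48 FPKM in WT diabetic mice. It was at 0.185, 0.155, and 0.226 FPKM in *Cfb-/-* control and at 1.45, 1.28, 1.19, and 1.32 FPKM in *Cfb-/-* diabetic mice. *Top2a* rose by 2.34 (SE 0.18, adjusted p = 1.21e-06) and 2.29 (SE 0.18, adjusted p = 1.72e-06). For genes compared singly, the exact two-sided permutation test of 4 against 3 mice gave its smallest possible p of 0.0571 for *Mki67* and *Top2a* in each genotype.

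All 7 mitotic cyclins and kinases rose in both genotypes, by 1.46 to 2.49 in WT and by 1.29 to 2.29 in *Cfb-/-* mice. *Cdk1*, the kinase that drives entry into mitosis, was at 0.221, 0.0912, and 0.135 FPKM in WT control and at 0.954, 1.35, 1.14, and 1.73 FPKM in WT diabetic mice. It was at 0.152, 0.0982, and 0.253 FPKM in *Cfb-/-* control and at 1.46, 0.883, 0.895, and 0.860 FPKM in *Cfb-/-* diabetic mice. *Cdk1* rose by 2.49 (SE 0.27, adjusted p = 1.53e-05) and 2.08 (SE 0.27, adjusted p = 5.93e-05), with no overlap. *Ccna2*, which encodes cyclin A2, was at 0.398, 0.430, and 0.654 FPKM in WT control, 1.97, 1.36, 1.38, and 2.51 FPKM in WT diabetic, 0.412, 0.589, and 0.503 FPKM in *Cfb-/-* control, and 2.04, 1.75, 1.66, and 1.43 FPKM in *Cfb-/-* diabetic mice. It rose by 1.66 (SE 0.23) and 1.60 (SE 0.23). The partners of CDK1, *Ccnb1* and *Ccnb2*, rose by 2.37 and 2.16 in WT mice and by 1.77 and 2.29 in *Cfb-/-* mice. The kinases *Plk1*, *Aurka*, and *Aurkb*, which act at spindle poles and centromeres, rose by 1.63, 1.54, and 1.46 in WT mice and by 1.86, 1.31, and 1.29 in *Cfb-/-* mice.

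Of the 7 checkpoint, kinetochore, and anaphase-promoting complex (APC/C) genes, 6 passed an adjusted p under 0.05 as higher in each genotype. That count includes *Bub1* and *Cenpf*, which passed the floor only with diabetic mice, so their calls are not read as results. *Cdc20*, the activator that starts anaphase, was at 0.271, 0.660, and 0.752 FPKM in WT control and at 2.07, 1.80, 1.71, and 3.001 FPKM in WT diabetic mice. It was at 0.680, 0.497, and 0.342 FPKM in *Cfb-/-* control and at 1.35, 1.47, 1.96, and 1.70 FPKM in *Cfb-/-* diabetic mice. All diabetic mice lay above all controls, and *Cdc20* rose by 1.82 (SE 0.29, adjusted p = 0.000248) and 1.53 (SE 0.29, adjusted p = 0.00107). *Ube2c*, the ubiquitin-conjugating enzyme of the APC/C, was at 0.786, 0.840, and 0.546 FPKM in WT control, 1.73, 2.07, 3.59, and 3.88 FPKM in WT diabetic, 0.404, 0.532, and 0.440 FPKM in *Cfb-/-* control, and 3.45, 3.04, 1.88, and 3.13 FPKM in *Cfb-/-* diabetic mice. It rose by 1.77 (SE 0.28) and 2.39 (SE 0.28). *Bub1b*, a kinase of the spindle checkpoint, rose by 1.59 and 1.36. Its relative *Bub1* was at 0.0170 to 0.0492 FPKM in control and at 0.149 to 0.306 FPKM in diabetic mice, and the kinetochore gene *Cenpf* at 0.0244 to 0.0455 and at 0.148 to 0.269 FPKM. *Birc5*, which encodes survivin, rose by 0.84 in WT mice (adjusted p = 0.0292) and by 1.55 in *Cfb-/-* mice (adjusted p = 0.000973), and the first call was lost without WT diabetic mouse 4 (0.65), WT control mouse 1 (0.71), or WT control mouse 2 (0.85). *Cenpe*, a kinetochore motor, was not called, at 0.19 (SE 0.25) in WT and 0.42 (SE 0.25) in *Cfb-/-* mice.

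Of the 6 spindle and cytokinesis genes, 5 rose in each genotype. *Prc1*, which bundles the microtubules of the central spindle, was at 0.205, 0.126, and 0.175 FPKM in WT control and at 1.01, 1.15, 1.15, and 1.29 FPKM in WT diabetic mice. It was at 0.0926, 0.0232, and 0.138 FPKM in *Cfb-/-* control and at 0.973, 1.08, 1.09, and 0.793 FPKM in *Cfb-/-* diabetic mice. *Prc1* rose by 2.23 (SE 0.22, adjusted p = 9.02e-06) and 2.60 (SE 0.22, adjusted p = 3.53e-06), with no overlap. *Kif23*, a kinesin of the midbody, was at 0.250, 0.236, and 0.553 FPKM in WT control, 1.86, 1.05, 2.15, and 2.21 FPKM in WT diabetic, 0.464, 0.433, and 0.509 FPKM in *Cfb-/-* control, and 2.59, 2.21, 1.49, and 1.16 FPKM in *Cfb-/-* diabetic mice. It rose by 2.12 (SE 0.31) and 1.73 (SE 0.31). *Kif11*, *Kif20a*, and *Tpx2* rose by 1.32 to 2.18 in WT and by 1.16 to 2.12 in *Cfb-/-* mice. *Nusap1*, a microtubule-binding protein of the spindle, was not called, at 0.41 (SE 0.27) and 0.44 (SE 0.27).

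In the 19 promoters of mitotic members (proliferation markers, cyclins and kinases, checkpoint, and spindle), 89.5% held a CCAAT box, 42.1% a CHR element, and 15.8% an E2F site, against the shares of all promoters given above. The last 160 bases before the start are shown for *Top2a* (chr11:99024190-99024349), *Cdk1* (chr10:69352913-69353072), *Ccnb2* (chr9:70421555-70421714), and *Cdc20* (chr4:118437344-118437503), all on the minus strand of GRCm38.p6, because these genes rose in both genotypes. The same motifs are in capitals, and those read on the opposite strand appear as their reverse complement, such as ATTGG for the CCAAT box.
Top2a: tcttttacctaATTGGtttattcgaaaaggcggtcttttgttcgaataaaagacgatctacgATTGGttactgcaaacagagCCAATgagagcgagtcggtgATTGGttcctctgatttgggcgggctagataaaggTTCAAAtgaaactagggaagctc
Cdk1: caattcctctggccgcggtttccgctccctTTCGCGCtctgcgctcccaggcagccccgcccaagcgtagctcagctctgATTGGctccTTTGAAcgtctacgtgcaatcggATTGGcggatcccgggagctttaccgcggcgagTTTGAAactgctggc
Ccnb2: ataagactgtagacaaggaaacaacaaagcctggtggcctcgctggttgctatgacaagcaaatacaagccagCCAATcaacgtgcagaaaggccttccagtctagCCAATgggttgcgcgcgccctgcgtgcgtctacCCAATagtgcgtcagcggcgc
Cdc20: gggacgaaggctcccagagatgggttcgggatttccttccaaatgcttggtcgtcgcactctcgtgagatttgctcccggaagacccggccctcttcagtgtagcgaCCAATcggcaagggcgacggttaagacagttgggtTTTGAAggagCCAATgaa

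Each of these 4 stretches held more than 1 CCAAT box, and those of *Top2a*, *Cdk1*, and *Cdc20* also held a CHR element. *Ccnb2* has a CHR element at -167 from the start, within the bases searched but outside the printed stretch. Among all promoters 0.253% held the 3 kinds of motif together, among those of protein-coding genes 0.31%, and among the 43 promoters of the members 6.98%.

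WT diabetic mouse 4 stood apart. Of the 8 diabetic mice, it had the highest FPKM in 32 of the 48 genes (66.7%), and in 16.2% of all tested genes. The mean log2(FPKM + 0.1) of the 48 genes was 1.02 in that mouse, 0.605 to 0.756 in the other 3 WT diabetic mice, and 0.587 to 0.774 in the *Cfb-/-* diabetic mice. In control mice it was -0.778 to -0.575, so that all diabetic mice were apart from all controls. The summed FPKM of 6 injured tubule markers was also highest in that mouse, at 2383, against 1182 to 2233 in the other diabetic mice. Most of that sum was *Spp1*, at up to 2250 FPKM in WT diabetic mice. *Havcr1*, *Lcn2*, *Vcam1*, *Sox9*, and *Krt20* each had their highest value in a *Cfb-/-* diabetic mouse. The sums of neutrophil and erythroid markers were highest in WT diabetic mouse 4. Whether any of these markers bears on its cell cycle values was not tested. Without that mouse, 38 of 48 genes were higher with diabetes in WT mice, against 32.2% of all genes, and their median was 1.50.

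**Figure D4:**
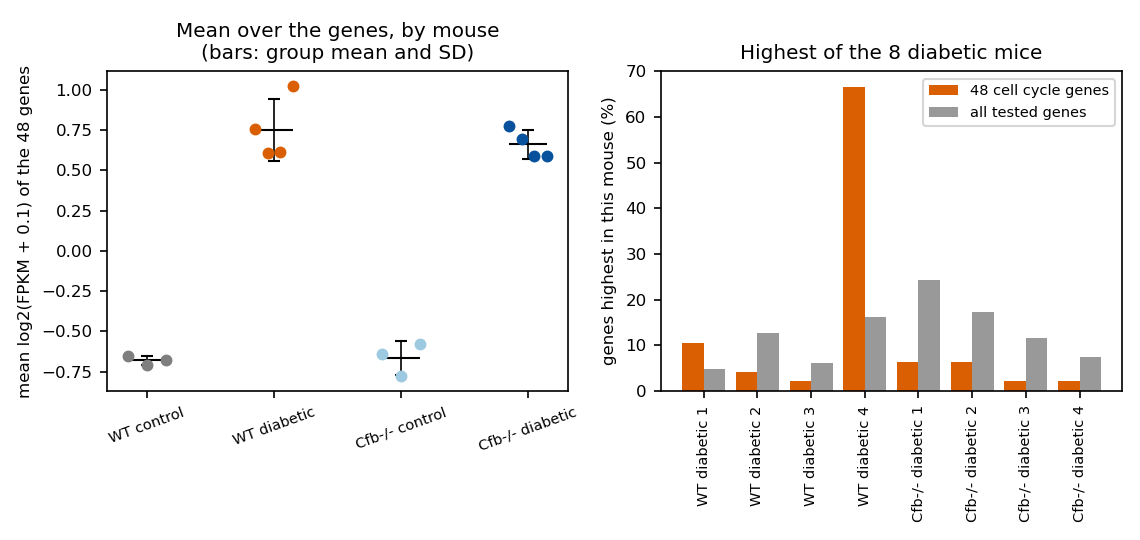
Left, each point is the mean log2(FPKM + 0.1) of the 48 genes in a mouse, with group mean and SD, and WT diabetic mouse 4 is highest at 1.02. Right, the bars give the percentage of genes with their highest FPKM of the 8 diabetic mice in each mouse, for the 48 genes and for all 14912 tested genes, and WT diabetic mouse 4 holds 66.7% and 16.2%.

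Markers of other cell types moved with diabetes as well. The summed FPKM of 6 macrophage markers went from 40.6 to 54.6 in WT control to 116 to 183 in WT diabetic mice, and from 33.4 to 49.6 to 113 to 196 in *Cfb-/-* mice, with 6 and 5 of 6 markers called higher, against the 36.2% and 27.4% of all genes given above. Of 6 T cell markers, 5 were higher in each genotype, and of 6 B cell markers, 5 in WT and 2 in *Cfb-/-* mice, the last a share near that of all genes. All 5 fibroblast and all 6 injured tubule markers were higher in both genotypes, and the injured tubule sum went from 233 to 247 to 1479 to 2383 in WT and from 267 to 303 to 1182 to 2233 in *Cfb-/-* mice. Of 8 proximal tubule markers, 5 were lower in WT and 7 in *Cfb-/-* mice, against 9.97% and 6.4% of all genes. The sum of 5 urothelial markers went from 0.279 to 0.610 to 0.690 to 45.7 in WT mice, with 5 of 5 higher, and was at 0.607 to 8.77 and 1.22 to 3.09 in *Cfb-/-* control and diabetic mice, with 0 of 5 called. Of the macrophage, T cell, B cell, fibroblast, and injured tubule markers, 0 were listed at 0 in all control mice. The endothelial sum also rose without overlap. It went from 57.2 to 77.4 to 88.1 to 97.6 in WT and from 47.9 to 58.1 to 76.7 to 95.5 in *Cfb-/-* mice. The podocyte sum did so in *Cfb-/-* mice alone and the adipocyte sum in WT mice alone. *Fabp4* had the highest mean of the adipocyte markers in each group, and by itself rose without overlap in both genotypes. It went from 18.3 to 32.9 to 44.1 to 68.7 FPKM in WT and from 16.1 to 29.8 to 32.1 to 43.9 FPKM in *Cfb-/-* mice. Sums of thick limb, distal tubule, collecting duct, neutrophil, and erythroid markers overlapped between diabetic and control mice of each genotype. Which cells carried the cell cycle transcripts was not tested.

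Other cell cycle genes were followed in 5 lists of 121 genes, 119 of which were tested. In WT mice 83 were higher, and in *Cfb-/-* mice 71 were higher, to be read against 36.2% and 27.4% of all genes. *E2f5* and *Kif20b* were among those lower in both genotypes. Of 56 tested mitosis genes, 46 and 40 were higher, with the largest rise in *Gtse1*, a microtubule-associated protein of G2 and S phase, at 2.79 (SE 0.28) in WT and 2.55 (SE 0.28) in *Cfb-/-* mice. *Kif20b*, a kinesin of cytokinesis, went the other way, from 0.847 to 2.68 FPKM in WT control to 0.498 to 0.783 FPKM in WT diabetic mice, and from 1.86 to 2.76 FPKM to 0.295 to 0.689 FPKM in *Cfb-/-* mice. It fell by 1.24 (SE 0.33, adjusted p = 0.00843) and by 2.01 (SE 0.33, adjusted p = 0.000392) on the log2 scale. Of 27 replication genes, 18 and 15 were higher, led by *Gins2*, a subunit of the replicative helicase complex, at 2.25 (SE 0.21) in WT and by *Uhrf1*, which maintains DNA methylation at replication, at 1.95 (SE 0.23) in *Cfb-/-* mice. Of 16 genes of RB, E2F, and DREAM proteins, 8 were higher in WT and 4 in *Cfb-/-* mice, the last a share no higher than that of all genes, led by *Mybl1*, a relative of *Mybl2*, at 1.64 (SE 0.23) and by *E2f7*, a repressor of the E2F family, at 1.06 (SE 0.21). *E2f5*, another repressor of that family, fell by 0.38 (SE 0.10) and by 0.43 (SE 0.10).

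Of 13 further cyclins, CDKs, and their phosphatases, 7 were higher in each genotype, led by *Pkmyt1*, an inhibitory kinase of CDK1, at 1.36 (SE 0.32) in WT and by *Ccnf*, which encodes cyclin F, at 1.53 (SE 0.25) in *Cfb-/-* mice. Of 7 CIP/KIP and other inhibitors, 4 were higher in WT and 5 in *Cfb-/-* mice. *Cdkn1a*, which encodes p21, a target of p53 that blocks CDKs, had the largest change of all cell cycle genes followed. It was at 3.03 to 6.61 FPKM in WT control and 66.6 to 97.8 FPKM in WT diabetic mice, and between 4.00 and 5.98 FPKM in *Cfb-/-* control and 80.1 to 131 FPKM in *Cfb-/-* diabetic mice. The groups did not overlap, and *Cdkn1a* rose by 4.34 (SE 0.24, adjusted p = 6.59e-08) and 4.40 (SE 0.24, adjusted p = 8.09e-08). Transcripts of the CDK inhibitors *Cdkn1a* and *Cdkn2b* and of the proliferation markers were thus called higher in the same diabetic kidneys. For *Cdkn2b* the call in *Cfb-/-* mice was lost without any of 6 single mice. *Cdkn2a* was found in diabetic mice alone, which is not read as a test. The inhibitors *Cdkn2c* and *Cdkn2d* were not called in WT mice.

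*Cfb* deletion was tested next in diabetic mice, where no member passed the adjusted test. With limma and Benjamini-Hochberg adjustment, 0 of 48 were called higher, against 0% of all genes, and 0 lower, against 0.00671% of all genes, which is *Cfb* alone. At an unadjusted p under 0.05 there was 1 of 48, *Kif11*, against 3% of all genes, and 0 met the study's criteria, against 0.0738% higher and 0.402% lower. The median log2 difference between *Cfb-/-* and WT diabetic mice was -0.06, with single genes from -0.52 to 0.41. The mean was lower in *Cfb-/-* diabetic mice for 34 genes and higher for 14, and without WT diabetic mouse 4 it was lower for 22 and higher for 26, with a median of 0.03. For 44 of the 48 genes the 95% interval of the difference lay within a factor of 2 in either direction. For *Mki67* it ran from -0.47 to 0.29 and for *Top2a* from -0.41 to 0.29 on the log2 scale. The intervals of *Cdkn2a*, *Cdkn2b*, *Tk1*, and *Ccnb2* reached past a factor of 2.

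*Kif11*, which encodes the kinesin that pushes spindle poles apart, is named here after its values were seen. It was at 0.863, 0.710, 0.618, and 0.759 FPKM in WT diabetic mice and at 0.617, 0.401, 0.488, and 0.527 FPKM in *Cfb-/-* diabetic mice. The groups did not overlap, by a gap between 0.617 and 0.618 FPKM, and 0.885% of all genes were lower without overlap. No member was higher without overlap, as 1.86% of all genes were. The log2 difference was -0.47 (SE 0.19, unadjusted p = 0.0289, adjusted p = 1), and the exact two-sided permutation test gave 0.0286, the smallest p possible for 4 against 4 mice.

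**Figure D5:**
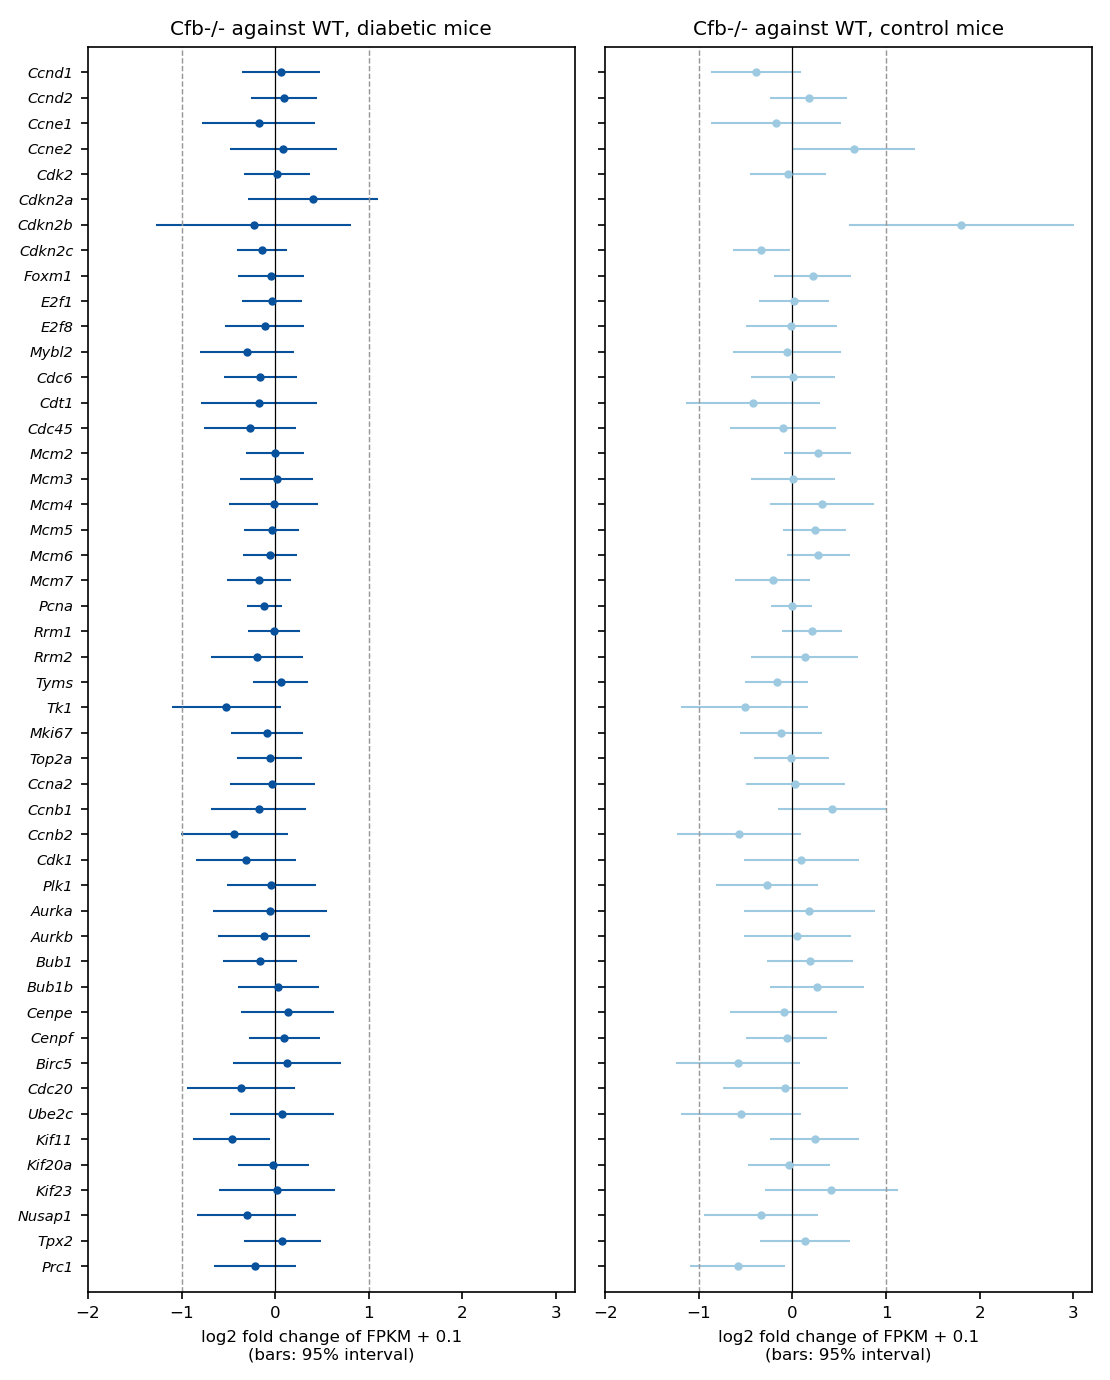
Points give the log2 difference between Cfb-/- and WT mice for each gene, in diabetic mice (left) and control mice (right), with bars of the 95% interval and dashed lines at a factor of 2. In diabetic mice 44 of 48 intervals stay within the dashed lines, and the largest difference in control mice is that of Cdkn2b, at 1.81. Cdkn2a, listed at 0 in all control mice, has no point on the right.

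In control mice, 0 of 48 genes were called for *Cfb* deletion by limma (0% of all genes higher and 0.00671% lower). At an unadjusted p under 0.05 there were 3, *Cdkn2b*, *Cdkn2c*, and *Prc1*, against 17.5% of all genes. Of the 48, 24 had a lower mean in *Cfb-/-* control mice. The others had a higher mean, except *Cdkn2a*, which was listed at 0 in all control mice. Only *Cdkn2b* met the study's criteria as higher, against 0.946% of all genes, and 0 did as lower, against 0.221%. Its difference was 1.81 (SE 0.56, adjusted p = 0.244), and the groups overlapped, since WT control mouse 2, at 0.870 FPKM, lay above *Cfb-/-* control mouse 2, at 0.612 FPKM. *Cdkn2c* differed by -0.33 (SE 0.14, adjusted p = 0.27) and *Prc1* by -0.58 (SE 0.24, adjusted p = 0.254). *Mcm2* and *Bub1* were higher without overlap (6.67% of all genes), and *Cdkn2c*, *Tyms*, *Birc5*, and *Ube2c* were lower without overlap (7.12% of all genes). The 95% interval lay within a factor of 2 for 38 of 48 genes, and 3 against 3 mice cannot reach an exact p under 0.1. That count includes *Cdkn2a*, listed at 0 in all control mice, and *Cdc6*, *Bub1*, *Cenpf*, and *E2f8*, under 0.1 FPKM in all of them. Adding 0.1 to such values draws their fold changes toward 0 on the log2 scale, so their intervals are not read as bounds.

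The effect of diabetes was not shown to differ between genotypes for any of the 48 genes. In the interaction, 0 were called by limma, as for all genes (0% in each direction), and the smallest adjusted p was 0.779. At an unadjusted p under 0.05 there were 2, *Cdkn2b* and *Kif11*, against 5.77% of all genes. The rise of *Cdkn2b* was smaller in *Cfb-/-* mice, by -2.03 (SE 0.74), and *Cdkn2b* was the only member that met the study's criteria in this contrast, as lower, against 1.31% of all genes, with 0 higher, against 0.463%. Its *Cfb-/-* diabetic mice, at 2.38 to 4.86 FPKM, lay within the range of the WT diabetic mice, at 2.30 to 5.53 FPKM. The difference between genotypes was 1.81 in control and -0.23 in diabetic mice. The urothelial marker sum was 8.72 and 8.77 in *Cfb-/-* control mice 1 and 3, and 0.279 to 0.610 in the remaining controls. It was 34.2 and 45.7 in WT diabetic mice 2 and 3, the highest in *Cdkn2b*, but 1.22 to 3.09 in *Cfb-/-* diabetic mice. Whether urothelial content bears on *Cdkn2b* was not tested. For *Kif11* the effect of diabetes differed between genotypes by -0.71 (SE 0.29). These comparisons share mice with those of diabetes in each genotype.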

How the data were processed

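Kidney RNA of 14 mice was sequenced from both ends as stranded mRNA libraries. The authors deposited a value per gene and mouse that was taken as FPKM, because the values carry decimals, their sums differ between mice, and the smallest steps get finer for longer transcripts. The authors' notes with the samples name Trimmomatic, HISAT2, Cufflinks, HTSeq, DESeq, and GRCm38.p6, with no role or version. Sums per mouse were 330246 to 488196. Depth is unknown, so no counting error is given.

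Genes with at least 0.1 FPKM in at least 3 mice (14912 of 21878) were tested as log2(FPKM + 0.1). The model was fitted by limma 3.58.1 under R 4.3.3, using a trend of variance on mean level and a mean for each of the 4 groups over all 14 mice. P values were adjusted over all tested genes by Benjamini-Hochberg. DESeq2, the study's tool, was not used, since it needs read counts. Single genes were also compared by exact two-sided permutation tests in scipy 1.17.1, with figures in matplotlib 3.10.9. The fit was tested on simulated data.

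The 48 genes, the other lists, and the tests were chosen with earlier results of these data known. Values in every mouse are given for *Mki67*, *Top2a*, *Ccnd1*, and the INK4 genes, and for the member of each role with the highest mean FPKM and the called member with the largest change in WT mice. *Tk1*, *Mcm6*, and *Kif11* were added after their values were seen. Of each further list, the largest rise and the largest called fall are named, except for 1 gene that is not reported here. Samples were taken as separate mice, as numbered in the titles, and P values measure the spread between them. Promoters came from RefSeq, and 37 of 43 had their downstream end in an annotated transcript. Alternatives were pseudocounts of 1 and 0.01, no filter or a filter of 1 FPKM, median-ratio scaling, quantile normalization, a fit to 2 groups at a time, a block for the replicate number, and leaving out each mouse. A count over genes at the floor in at least 3 control mice was added after the data were seen.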

Additional observations from a re-analysis of the deposited data

Results flagged for a closer look

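In each diabetic group of 4 mice, the highest or lowest FPKM of each of the 48 genes was compared with the spread of the others by Dixon's test, in 96 groups of values. In 5 of them a mouse stood far from the other 3, and chance alone gives about 5% of groups. In WT diabetic mice, mouse 4 was high for *Mcm3*, at 3.867 FPKM against 2.513 to 2.617 in the others, and for *Mcm5*, at 3.74 FPKM against 2.809 to 2.939. In *Cfb-/-* diabetic mice, mouse 1 was high for *Rrm1*, at 5.269 FPKM against 4.825 to 4.873, and for *Cdk1*, at 1.46 FPKM against 0.8599 to 0.895, and mouse 3 was high for *Mcm4*, at 3.454 FPKM against 2.596 to 2.724. Control groups of 3 mice were not examined.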

How the results depend on the processing

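The counts of genes higher with diabetes kept within 1.5 times under each alternative but the filter of 1 FPKM, which left 28 of the 48 genes tested and called 21 in WT and 23 in *Cfb-/-* mice. With log2(FPKM + 1) the members' median change was 0.61 and 0.51 on the log2 scale. Quantile normalization called 1 gene lower, *Tk1*, in each genotype. The counts at the study's criteria moved more, to 10 and 5 with log2(FPKM + 1), a scale that shrinks folds of genes near the floor, to 18 and 16 with the filter of 1 FPKM, and to 18 and 15 with quantile normalization, in WT and *Cfb-/-* mice. For *Cfb* deletion in control mice that count was 0 with log2(FPKM + 1) and 2 with log2(FPKM + 0.01), and for the difference between genotypes it was 0 with log2(FPKM + 1). Where no construction explains a change, the cause was not tested.

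Some genes changed sign. With median-ratio scaling and quantile normalization in WT mice, *Cdkn2c* went to -0.063 and -0.10, *Mcm6* to -0.0091 and -0.071, *Mcm7* to -0.090 and -0.10, and *Cenpe* to -0.0090 and -0.60. With quantile normalization *Tyms* went to -0.25 and *Nusap1* to -0.27 in WT mice, and *Mybl2* to -0.084, *Cenpe* to -0.23, *Nusap1* to -0.22, *Ccne2* to -0.092, and *Cdkn2d* to -0.058 in *Cfb-/-* mice. There, *Mcm7* went to -0.012 and -0.075, and *Cdkn1b* to -0.0091 with median-ratio scaling. The cause was not tested.

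Leaving out each mouse gave 37 to 41 genes higher with diabetes in each genotype, 31 to 35 at the study's criteria in WT and 31 to 33 in *Cfb-/-* mice, and 0 to 1 for the difference between genotypes, with 0 without *Cfb-/-* control mouse 3 or WT control mouse 1. With a mouse left out, *Ccnh* ranged from -0.066 to 0.087 and *Cdkn2d* from -0.22 to 0.045 in WT mice, and *Mcm6* from -0.16 to 0.015 in *Cfb-/-* mice, and none of these was called.

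No pairing of mice by replicate number is stated in the labels and none was seen, although low correlations cannot exclude a pairing. Of 19 pairs of mice with the same number, 3 had a correlation of deviations over 0.1, with a range of -0.388 to 0.243. With the replicate number as a block, 39 genes were higher in WT and 38 in *Cfb-/-* mice, without *Birc5* in WT and without *Cdkn2b* and *Cdkn2c* in *Cfb-/-* mice.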
